A study of Mus musculus with 8 samples.

Results

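The cadherin and protocadherin genes were the rows of the expression matrix whose symbols are Cdh, Pcdh or Pcdha, Pcdhb or Pcdhg (with any letter after the cluster letter) followed by a number. There were 91 of them among 32543 genes: 23 cadherins, 11 non-clustered protocadherins and 57 clustered protocadherins. The rule used symbols only and no measured value, but it was set with earlier results of these data known. It leaves out Pcdh11x, whose symbol ends in a letter.

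RNA was sequenced from amygdalar intercalated cells (ITCs), small groups of GABAergic neurons that lie around the basolateral amygdala, taken from mouse embryos at E16.5 on an outbred background. The 4 control libraries came from Tshz1GFP/+ embryos and the 4 knockout libraries from Tshz1GFP/RA embryos, so both genotypes carry the GFP allele that was used to sort the cells and they differ at the other copy of Tshz1, a zinc finger transcription factor, which is wild type in control embryos and the RA allele in knockout embryos. Each library is a pool of embryos of its genotype, and its title starts with NX, NY, QT or RM, a prefix shared by a control and a knockout library whose meaning the labels do not give. Whether the pools came from separate litters is not stated, so p-values measure the spread between these pools.

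Cadherins are calcium-dependent adhesion proteins of the cell surface. Classical cadherins bind catenins inside the cell and hold like cells together, and combinations of type I and type II cadherins are known for sorting neurons into nuclei and layers. Non-clustered protocadherins of the delta group adhere more weakly and act on actin through the WAVE complex or on other partners. The clustered protocadherins are read from arrays of alternative promoters, each neuron uses a small set of them, and matching sets let neurites of the same cell recognise and avoid each other.

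Upstream stretches of 4 members are shown because they are the pair of type II cadherins with the largest fitted differences among those detected in all 8 libraries (Cdh22 and Cdh20), the most abundant member with a sequence in the promoter table (Pcdh19) and a member with no count in any library (Cdh26). The sequences are from RefSeq on GRCm38.p6, run 5′ to 3′ on the strand of the gene, lie before the annotated start and outside the GENCODE exons of the gene, and have each CG pair in capitals.
Cdh22, chr2:165234854-165234987, minus strand: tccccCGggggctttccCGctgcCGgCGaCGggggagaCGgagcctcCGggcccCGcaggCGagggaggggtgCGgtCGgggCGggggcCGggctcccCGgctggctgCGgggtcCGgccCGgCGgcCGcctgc
Cdh20, chr1:104768270-104768519, plus strand: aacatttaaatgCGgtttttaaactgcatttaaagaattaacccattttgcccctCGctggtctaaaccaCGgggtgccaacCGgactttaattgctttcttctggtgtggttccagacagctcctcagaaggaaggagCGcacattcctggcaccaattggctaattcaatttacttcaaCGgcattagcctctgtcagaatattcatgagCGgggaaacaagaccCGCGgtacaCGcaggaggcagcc
Pcdh19, chrX:133688994-133689243, minus strand: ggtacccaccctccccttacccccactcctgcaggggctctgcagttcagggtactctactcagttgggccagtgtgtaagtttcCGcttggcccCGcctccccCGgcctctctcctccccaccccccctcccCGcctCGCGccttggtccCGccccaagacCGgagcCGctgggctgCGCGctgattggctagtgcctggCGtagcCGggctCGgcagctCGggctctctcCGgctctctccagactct
Cdh26, chr2:178430265-178430514, plus strand: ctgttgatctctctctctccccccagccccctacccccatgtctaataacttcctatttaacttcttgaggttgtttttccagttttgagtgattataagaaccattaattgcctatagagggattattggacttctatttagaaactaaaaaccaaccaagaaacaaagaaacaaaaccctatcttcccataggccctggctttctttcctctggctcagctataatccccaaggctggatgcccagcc
The stretch shown for Cdh22 holds 19 CG pairs in 134 bases, and its whole 250-base window holds 30, more than 94.1% of the 32851 windows in the table. Cdh20 has 10, Pcdh19 has 16 and Cdh26 has 0. The table had windows for 22 members, all of them cadherins or non-clustered protocadherins. Of the 10 with a mean above 5 TPM, 8 had at least 10 CG pairs, and of the 12 at or below 5 TPM, 3 did, against 37.8% of all windows. These 2 limits were chosen after the values were seen. CCAAT, searched on both strands, was in 15 of the 25 member windows and in 33.85% of all windows, while TATAAA was in 2 of the 25 and in 12.37% of all.

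Libraries held 5785549 to 14535810 expected counts, and 3 counts, taken as the floor of detection, were worth 0.186 to 0.545 CPM (counts scaled to library size with TMM factors). That floor covers counting error only. Tshz1 was 381 ± 115 CPM for control and 79.1 ± 29.4 for knockout (SD, n = 4), and the genotypes did not overlap. GABAergic marker genes summed to 1967 to 2854 CPM in control and 2188 to 2454 in knockout libraries. The intercalated cell markers Foxp2, Meis2, Erbb4, Oprm1, Drd1 and Tshz1 were detected and summed to 1781 to 3196 CPM in control and 1316 to 2025 in knockout libraries. Markers of cycling cells summed to 67.5 to 601 CPM in control and 82.9 to 1005 in knockout, and those of radial glia to 110 to 699 and 190 to 859. Control NX was the lowest library for microglia (4.65 CPM), radial glia (110 CPM), cycling cell (67.5 CPM) and oligodendrocyte lineage (0.558 CPM) markers. In sorted bulk samples, fewer cells of a type and less RNA per cell cannot be told apart.

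No cadherin or protocadherin passed the test for a difference between genotypes. Of the 91 members, 80 had counts high enough to test, and 0 of 80 had an adjusted p under 0.05 (Benjamini-Hochberg over 14157 genes, on edgeR's quasi-likelihood test), against 5 of all tested genes, or 0.0353% (0.0283% lower in the knockout). At an unadjusted p under 0.05 there were 2 members, Cdh22 and Pcdhb22, both fitted lower in the knockout, which is 2.5% of those tested against 3.62% of all tested genes (1.91% lower and 1.7% higher). The count at that unadjusted threshold was 8 of 80 without control RM, beside 4.94% of all genes tested in that fit. It was 4 of 81 without knockout NX (6.23% of all), 4 of 80 without knockout RM (3.62% of all) and 1 of 81 without control NX (3.85% of all). DESeq2 gave 4 of 80, beside 4.51% of all, and called 0 members.

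Over all members the fitted values were split evenly, 40 higher in the knockout and 40 lower. By family, 5 cadherins were fitted higher and 10 lower (33.3% higher, against 49.4% of all tested genes). The non-clustered members were 5 and 5, and the clustered members 30 and 25. The median log2 fold change (knockout minus control) was 0.03 over the members, -0.17 over 15 cadherins, 0.06 over 10 non-clustered and 0.08 over 55 clustered protocadherins, against -0.01 over all tested genes. Cdh22 was the 1 tested member whose genotypes did not overlap in CPM, against 2.59% of all tested genes (1.46% lower in the knockout). Log2 fold changes beyond 1 in size were fitted for Cdh5, Cdh22, Cdh20 and Pcdhb22, or 5% of members against 5.89% of all tested genes. All 4 were lower in the knockout. By family these were 3 of 15 cadherins (20%), 0 of 10 non-clustered and 1 of 55 clustered members (1.82%). Members summed to 867 ± 89.1 TPM (a level scaled to gene length and library total) in control and 853 ± 214 in knockout libraries (SD, n = 4). In TPM the knockout libraries were the more widely spread, from 621 (RM) to 1098 (NX). In CPM the control libraries were, with sums of 2148 ± 417 for control and 2189 ± 270 for knockout (SD, n = 4). Knockout RM was the highest knockout library in CPM (2468) and the lowest in TPM.

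**Figure D1:**
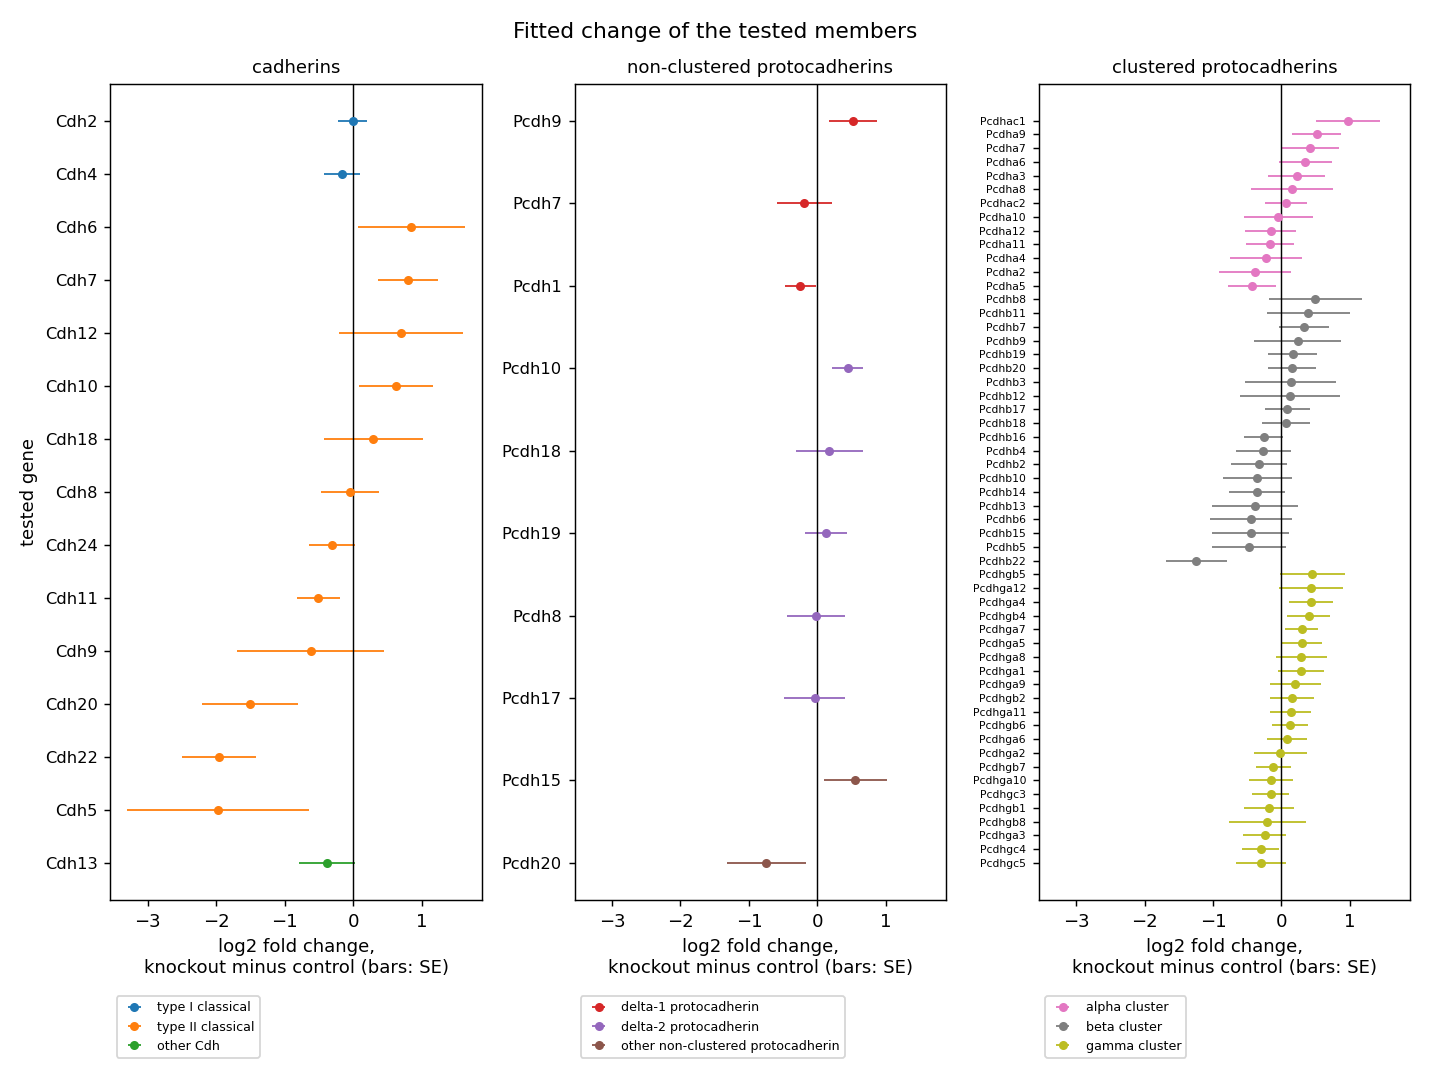
Fitted log2 fold change of each tested member, knockout minus control, with its standard error as a bar; colours mark subgroups and each panel is a family. Values scatter on both sides of 0, with Cdh22 (-1.96), Cdh20 (-1.51) and Pcdhb22 (-1.24) at the low end and Pcdhac1 (0.97) at the high end; the Cdh5 bar is the widest.

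Type I cadherins are the strongly adhesive classical cadherins. Cdh2, N-cadherin, the main cadherin of neural tissue, had the highest mean of all members at 114 TPM. Control values were 245 CPM in NX, 239 in NY, 337 in QT and 287 in RM, and knockout values 333 in NX, 248 in NY, 311 in QT and 209 in RM. The ranges lay on top of each other, and the log2 fold change was -0.01 with a standard error of 0.21. Cdh4, R-cadherin, averaged 13.1 TPM, with 30.4 CPM in NX, 59.2 in NY, 51.0 in QT and 56.7 in RM for control, against 32.8 in NX, 48.7 in NY, 37.3 in QT and 56.9 in RM for knockout. The NX library was the lowest of each genotype, and the log2 fold change was -0.17 ± 0.26 (SE). Epithelial and muscle cadherins were at or near 0. Cdh3 (P-cadherin) had no count in any library, Cdh1 (E-cadherin) had 1 count, in knockout RM, and Cdh15 (M-cadherin, of muscle) had 1 count, in control NX.

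Type II cadherins mark subsets of neurons in many brain regions, and 12 of their 13 members could be tested, 5 fitted higher and 7 lower. Cdh22, known first from pituitary and brain (chr2:165111507-165234853, minus strand, GRCm38, GENCODE), held 9.11 CPM in NX, 5.48 in NY, 8.80 in QT and 9.45 in RM in the control group. Knockout values were 4.02 CPM in NX, 1.24 in NY, 2.13 in QT and 0.832 in RM. These rest on 59 counts in NX, 15 in NY, 14 in QT and 5 in RM. Knockout RM was near the floor of 3 counts, which was 0.499 CPM in that library. In CPM all 4 control libraries were above all 4 knockout libraries, with control NY the lowest control and knockout NX the highest knockout. The means were 8.21 ± 1.84 and 2.06 ± 1.42 CPM (SD, n = 4), and the fitted log2 fold change was -1.96 ± 0.54 (SE), a fitted fold of 3.90 lower in the knockout. Its unadjusted p was 0.00327, but its Benjamini-Hochberg adjusted p was 0.784 on edgeR's quasi-likelihood test, so Cdh22 did not pass. In TPM the genotypes met, with 2.89 in knockout NX just above 2.82 in control NY and the other knockout libraries at 0.30 to 1.31. The unadjusted p stayed under 0.05 in 22 of 22 alternatives, with log2 fold changes from -2.54 to -1.40, and the lowest adjusted p was 0.0931, with DESeq2. The intercalated cell marker sum, which includes the disrupted gene Tshz1, was also lower in the knockout library of each prefix than in its control. In QT that order rests on Tshz1, which held 457 of 2300 CPM in control and 78.1 of 2025 in knockout. The cycling marker sum was higher in the knockout library of each prefix. The part of either sum in the Cdh22 difference was not tested.

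Cdh20 (chr1:104768529-104995481, plus strand) was the second type II cadherin by p. Control values were 3.41 CPM in NX, 1.92 in NY, 4.74 in QT and 3.63 in RM, and knockout values 1.29 in NX, 0.331 in NY, 0.761 in QT and 2.50 in RM. Knockout RM lay above control NY, so the genotypes overlapped. The log2 fold change was -1.51 ± 0.70 (SE), at an unadjusted p of 0.0503 by edgeR's quasi-likelihood test, which was under 0.05 in 10 of 22 alternatives. Knockout NY and QT were near the floor of 3 counts, which was 0.248 CPM in NY and 0.457 in QT, while knockout NX and RM lay above it (floors of 0.204 and 0.499 CPM).

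The most abundant type II cadherins per length were Cdh11, Cdh24 and Cdh8. Cdh11, an adhesion protein of mesenchyme and brain, held 34.5 CPM in NX, 27.5 in NY, 27.4 in QT and 53.1 in RM for control, against 16.2 in NX, 19.1 in NY, 35.9 in QT and 28.8 in RM for knockout. Its highest knockout library, QT, lay above every control library except RM, and the log2 fold change was -0.51 ± 0.32 (SE). Cdh24 held 26.3 CPM in NX, 13.2 in NY, 16.6 in QT and 21.1 in RM for control, against 21.7 in NX, 18.6 in NY, 9.29 in QT and 12.5 in RM for knockout, overlapping widely. Cdh8, a cadherin of cortical and striatal neurons, held 26.0 CPM in NX, 15.8 in NY, 10.02 in QT and 27.1 in RM for control, against 6.94 in NX, 18.6 in NY, 24.5 in QT and 26.6 in RM for knockout. Its knockout NX library was the lowest of the 8, while the genotype means were nearly equal at 19.7 ± 8.22 and 19.2 ± 8.83 CPM.

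The remaining type II members had fitted values on both sides of 0. Cdh7 held 3.41 CPM in NX, 5.70 in NY, 5.97 in QT and 9.45 in RM for control, against 5.92 in NX, 8.70 in NY, 12.8 in QT and 15.3 in RM for knockout, with a log2 fold change of 0.81 ± 0.44 (SE); knockout NX and NY lay within the control range. Cdh10 averaged 9.20 TPM with a log2 fold change of 0.62, Cdh6 0.85 and Cdh12 0.70. Cdh5, VE-cadherin, which joins endothelial cells, had the most negative fitted value at -1.97 ± 1.33 (SE). It held 5.85 CPM in control NY and 0 to 1.50 CPM in the other libraries. Control NY also had the highest sum of 8 endothelial markers, 37.8 CPM against 1.36 to 15.1 in the other libraries. Cdh19, a type II cadherin of neural crest, had no count in any library.

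**Figure D2:**
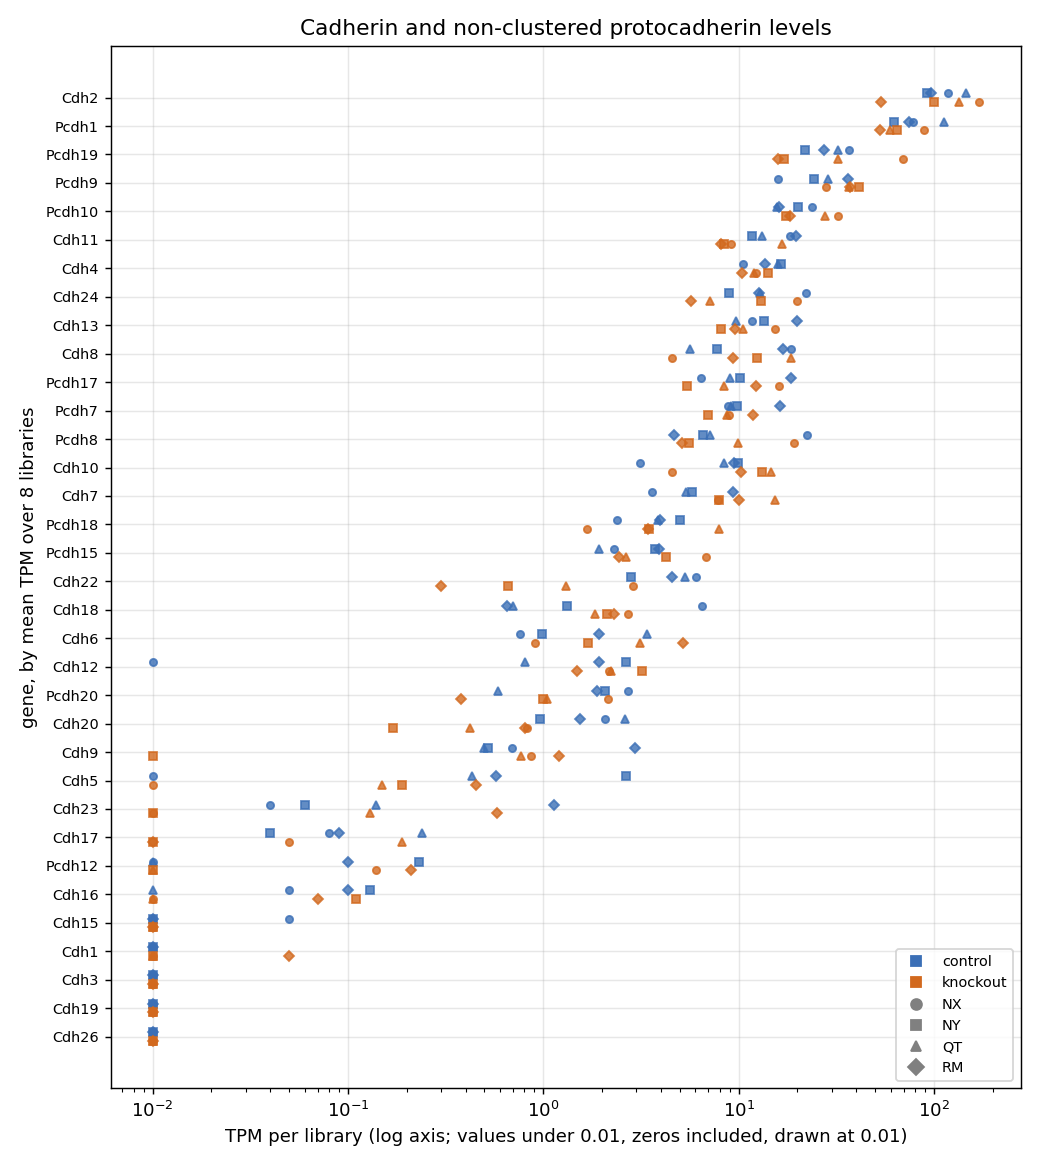
TPM of each cadherin and non-clustered protocadherin in each library on a log axis (blue control, orange knockout, marker shape by title prefix), ordered by mean. Cdh2 and Pcdh1 lie at the top, Cdh22 has 3 orange points to the left of all its blue points and the fourth, knockout NX, level with control NY, and Cdh3, Cdh19 and Cdh26 have no count.

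Among the other cadherins only Cdh13 could be tested. Cdh13, T-cadherin, is held by a lipid anchor and has no cytoplasmic tail. It had 12.1 CPM in NX, 20.1 in NY, 8.80 in QT and 31.1 in RM for control, against 14.1 in NX, 10.4 in NY, 10.2 in QT and 20.5 in RM for knockout, with RM the highest of each genotype and a log2 fold change of -0.38 ± 0.41 (SE). Cdh23, a part of the tip links of hair cells, held 4.91 CPM in control RM and 3.16 CPM in knockout RM. Its other 6 libraries held 0 to 0.459 CPM. Cdh17, of liver and intestine, had at most 5 counts in a library and Cdh16, of kidney, at most 3.

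Pcdh1, Pcdh7 and Pcdh9 are the delta-1 protocadherins among the members, and all 3 were tested. Pcdh1 had the second highest mean of all members, 74.2 TPM, with 93.8 CPM in NX, 88.4 in NY, 153 in QT and 123 in RM for control, against 97.6 in NX, 89.4 in NY, 77.8 in QT and 121 in RM for knockout. Control QT was the highest of the 8 and knockout QT the lowest, and the log2 fold change was -0.25 ± 0.23 (SE). Pcdh9, widely expressed in the developing nervous system, held 44.1 CPM in NX, 82.1 in NY, 86.4 in QT and 142 in RM for control, against 73.1 in NX, 134 in NY, 107 in QT and 192 in RM for knockout. NX was lowest and RM highest in both genotypes, and the ranges overlapped, while within each of the 4 prefixes the knockout library was above the control library. The same held for Cdh7, Cdh10, Cdh12, Pcdhac1, Pcdhga4, Pcdhga8 and Pcdhgb5, and the reverse for the tested members Cdh20, Cdh22, Pcdh7, Pcdhb22 and Pcdhgc5. The share of all tested genes with either pattern was not counted, and the labels do not say that a prefix marks a pair. The log2 fold change of Pcdh9 was 0.52 ± 0.35 (SE), and it was 0.83 without control RM and 0.25 without knockout RM. Pcdh7 held 29.8 CPM in NX, 38.6 in NY, 34.3 in QT and 80.7 in RM for control, against 26.9 in NX, 25.3 in NY, 33.8 in QT and 74.7 in RM for knockout. RM was again the highest of each genotype, and the means were 45.8 ± 23.5 CPM for control and 40.2 ± 23.3 for knockout (SD, n = 4).

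The 5 delta-2 protocadherins, of which Pcdh10, Pcdh17 and Pcdh19 are known to recruit the WAVE complex, were all tested. Pcdh19, an X-linked gene whose mutations cause epilepsy (chrX:133582860-133688987, minus strand), held 174 CPM in NX, 127 in NY, 168 in QT and 184 in RM for control, against 308 in NX, 94.7 in NY, 169 in QT and 140 in RM for knockout. Knockout NX was the highest of the 8 and knockout NY the lowest, so the knockout libraries enclosed the control libraries. Pcdh10 (chr3:45378398-45435623, plus strand) held 62.2 CPM in NX, 67.9 in NY, 46.7 in QT and 68.5 in RM for control, against 87.6 in NX, 57.5 in NY, 87.8 in QT and 101 in RM for knockout. The NX, QT and RM knockout libraries lay above all controls and knockout NY lay below 3 of them. The means of Pcdh10 were 61.3 ± 10.2 and 83.6 ± 18.5 CPM (SD, n = 4), and it was fitted at a log2 fold change of 0.45 ± 0.23 (SE), at an unadjusted p of 0.0710 by edgeR's quasi-likelihood test.

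Pcdh17 held 27.5 CPM in NX, 54.2 in NY, 43.7 in QT and 116 in RM for control, against 66.0 in NX, 28.4 in NY, 40.5 in QT and 99.8 in RM for knockout. RM was highest in both genotypes, and the means of 60.5 ± 38.9 and 58.7 ± 31.6 CPM (SD, n = 4) differed by less than either SD. Pcdh8, the activity-linked protocadherin also called arcadlin, averaged 10.1 TPM with a log2 fold change of -0.02. Exons of Pcdh10, Pcdh19, Pcdh8 and 15 other members overlap an antisense gene in GENCODE, and reads of the pair cannot be told apart here. Pcdh18 averaged 3.98 TPM with a log2 fold change of 0.17.

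The other non-clustered members were low. Pcdh15, which binds Cdh23 in tip links, held 4.28 CPM in NX, 11.5 in NY, 4.90 in QT and 17.4 in RM for control, against 17.1 in NX, 12.8 in NY, 8.83 in QT and 16.47 in RM for knockout, with a log2 fold change of 0.55 ± 0.46 (SE). Control NX and QT were the lowest, and the genotypes overlapped. Pcdh20 held 6.39 CPM in NX, 6.07 in NY, 1.53 in QT and 6.36 in RM for control, against 4.77 in NX, 2.82 in NY, 2.74 in QT and 1.66 in RM for knockout, where control QT stood apart from the other controls. Pcdh12, of endothelial cells, had 8 counts in control NY, 6 in knockout RM, 2 in control RM and in knockout NX, and none in the other libraries.

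**Figure D3:**
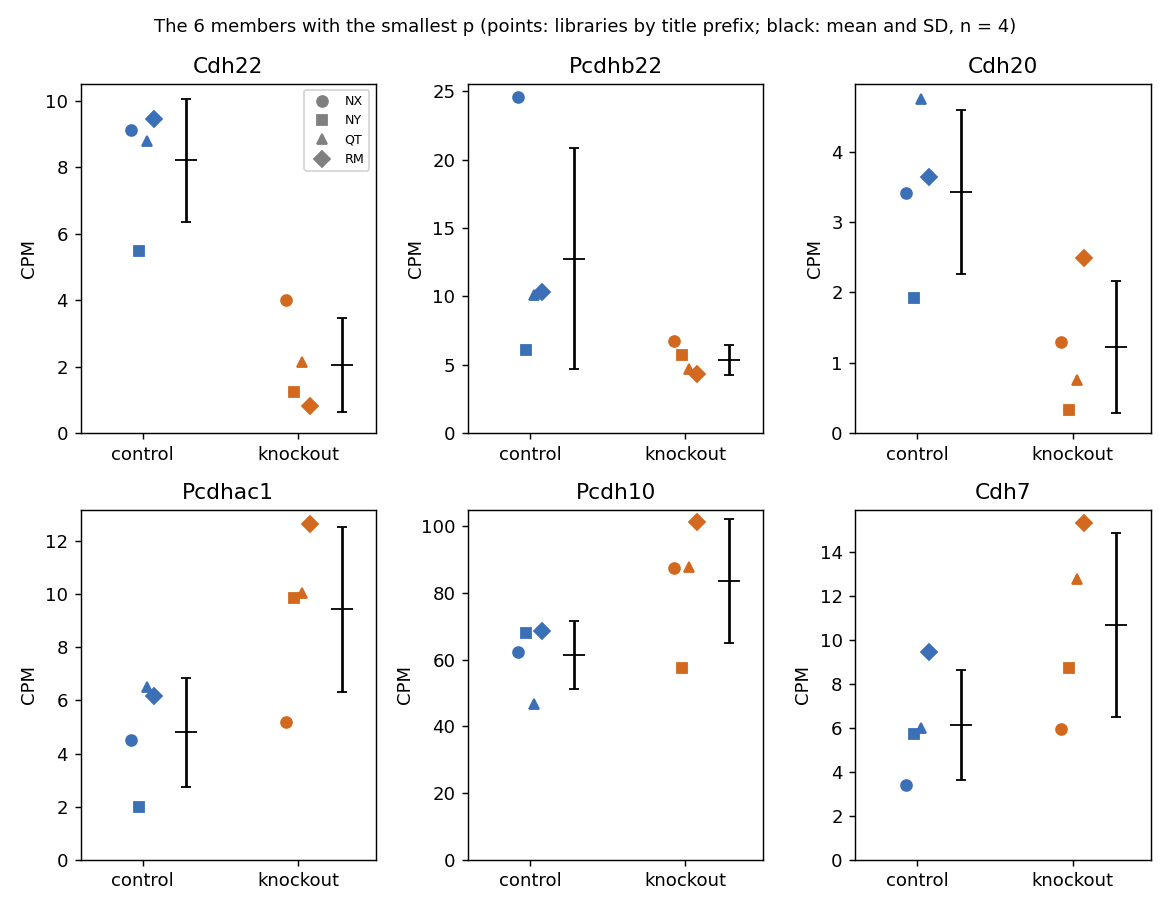
CPM per library of the 6 members with the smallest p, control in blue and knockout in orange, marker shape by title prefix, with the mean and SD (n = 4) in black beside them. Cdh22 is the member whose genotypes do not overlap in CPM; for Pcdhb22 the control NX library (24.6 CPM) stands above the others.

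The alpha, beta and gamma clusters lie on mouse chromosome 18. Alpha and gamma transcripts join a variable exon to exons shared by the whole cluster, while beta genes have no such common exons. In GENCODE a median of 53.5% of the exon bases of alpha members and 44.7% of those of gamma members were shared with other members, against 0 in beta. RSEM divides fragments of shared exons among the members, and expected counts were whole numbers (within 0.005) for 77.4% of beta values but for 2.68% of alpha and 1.14% of gamma values. Single alpha and gamma values are therefore uncertain, while the summed count of a cluster does not depend on that division among its members. Exons of the gamma members and of Pcdha4, Pcdha6 and Pcdha7 also overlap same-strand genes outside the members in GENCODE. How reads over those overlaps were assigned is uncertain, also for the sums.

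The summed clusters did not separate the genotypes. Alpha members summed to 73.8 ± 20.0 TPM in control and 73.8 ± 17.3 in knockout libraries, beta members to 97.1 ± 18.3 and 89.1 ± 35.4, and gamma members to 287 ± 23.9 and 290 ± 62.1 (SD, n = 4). The mean log2 of the summed CPM differed, knockout minus control, by 0.08 for alpha, -0.13 for beta and 0.05 for gamma. With each cluster entered as 1 gene, edgeR fitted log2 fold changes of 0.05 ± 0.25 for alpha, -0.11 ± 0.22 for beta and 0.04 ± 0.21 for gamma (SE).

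Use of the clusters was broad in both genotypes. At least 13 of 14 alpha and 20 of 21 beta members, and all 22 gamma members, had a TPM above 0 in each library. The effective number of members, the exponential of the entropy of their TPM shares, was 10.7 ± 0.773 in control and 11.1 ± 0.687 in knockout for alpha (SD, n = 4). It was 15.6 ± 1.04 and 15.4 ± 0.837 for beta, and 15.9 ± 1.68 and 16.7 ± 2.19 for gamma. Each library holds many cells, so these numbers say nothing of how many members a single cell used.

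**Figure D4:**
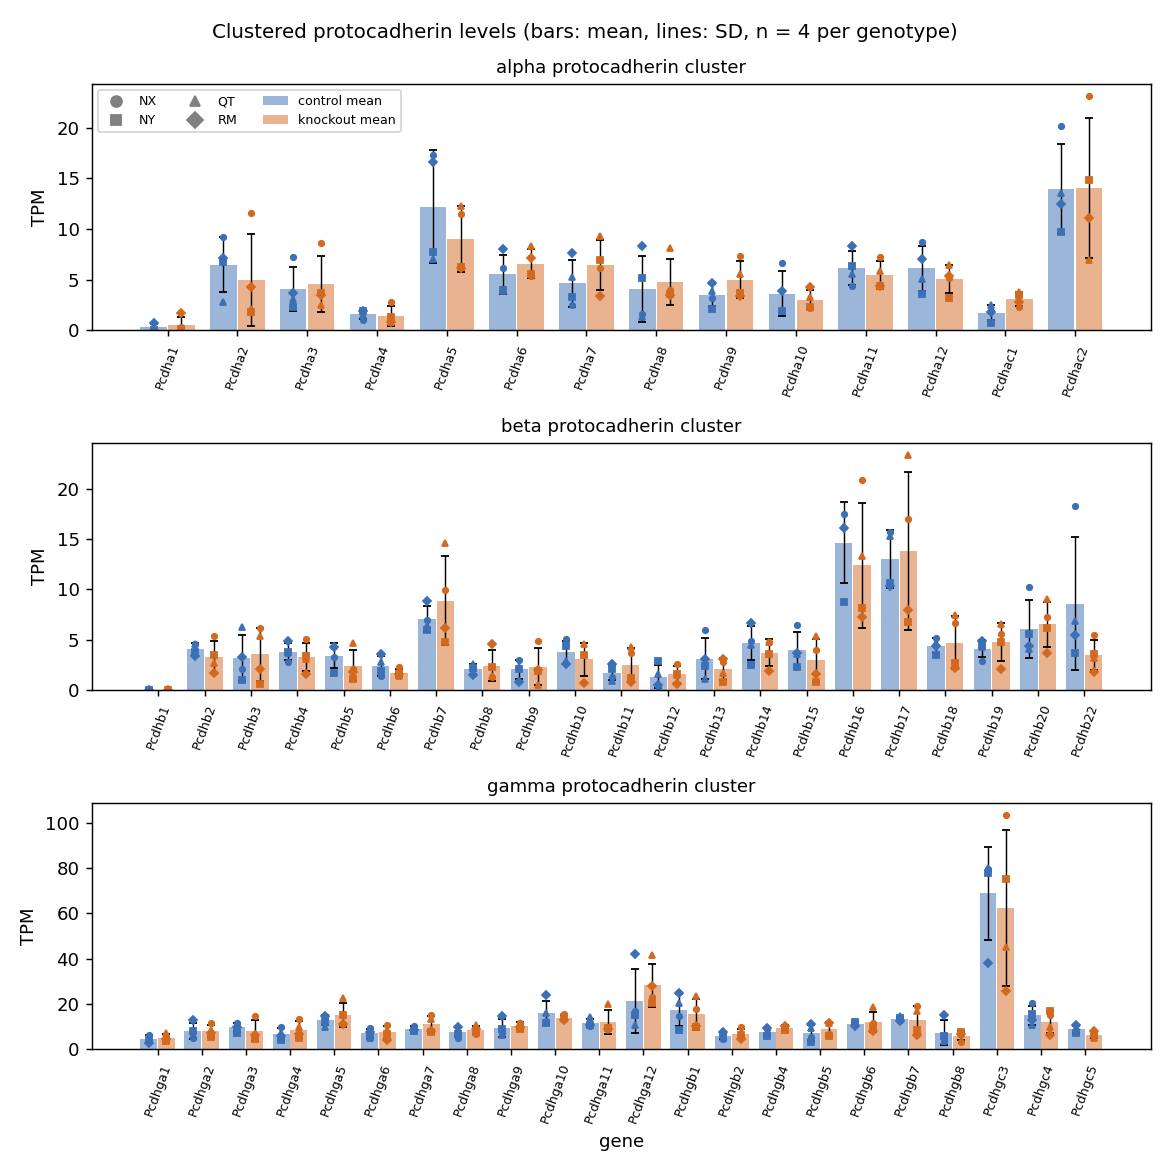
TPM of the clustered protocadherins by cluster, with bars for genotype means, lines for the SD (n = 4) and points for libraries. Pcdhgc3 is the tallest gamma bar, Pcdhac2 and Pcdha5 lead alpha, and Pcdhb16 and Pcdhb17 lead beta; control and knockout SDs overlap for each of these.

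In the alpha cluster 13 of 14 members were tested, 7 fitted higher and 6 lower. Pcdhac2, a C-type member, which are the members used more evenly across neurons, led with a mean of 14.0 TPM. It held 49.4 CPM in NX, 29.2 in NY, 36.7 in QT and 43.8 in RM for control, against 53.4 in NX, 43.2 in NY, 19.0 in QT and 51.1 in RM for knockout, and took 19.2 ± 4.57% of alpha TPM in control and 18.9 ± 6.99% in knockout (SD, n = 4). Pcdha5 held 40.7 CPM in NX, 22.4 in NY, 18.4 in QT and 56.0 in RM for control, against 25.2 in NX, 17.5 in NY, 32.1 in QT and 26.8 in RM for knockout. The NX and RM controls were the highest, and the log2 fold change was -0.43 ± 0.35 (SE). Pcdha6 held 13.8 CPM in NX, 10.9 in NY, 9.79 in QT and 25.4 in RM for control, against 11.2 in NX, 14.7 in NY, 20.5 in QT and 29.6 in RM for knockout. Knockout RM lay above every control, and the NX, NY and QT knockout libraries lay inside the control range.

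The smallest p in alpha belonged to Pcdhac1, the other C-type alpha member. Control values were 4.53 CPM in NX, 2.00 in NY, 6.50 in QT and 6.18 in RM, and knockout values 5.17 in NX, 9.85 in NY, 10.05 in QT and 12.6 in RM. Knockout NX lay within the control range and the other knockout libraries above it. Its fitted log2 fold change of 0.97 ± 0.47 (SE) had an unadjusted p of 0.0571 by edgeR's quasi-likelihood test, under 0.05 in 5 of 22 alternatives. Pcdha9, second by p, held 7.75 CPM in NX, 6.22 in NY, 10.5 in QT and 15.99 in RM for control, against 16.6 in NX, 10.5 in NY, 15.1 in QT and 15.3 in RM for knockout. Its highest control, RM, lay above 3 of the knockout libraries.

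In the beta cluster 20 of 21 were tested, 10 fitted higher and 10 lower. Pcdhb22 held 24.6 CPM in NX, 6.07 in NY, 10.1 in QT and 10.4 in RM for control, against 6.74 in NX, 5.71 in NY, 4.72 in QT and 4.33 in RM for knockout. Control NX was far above the rest, and control NY lay below knockout NX, so the genotypes overlapped. The log2 fold change was -1.24 ± 0.45 (SE), at an unadjusted p of 0.0164 by edgeR's quasi-likelihood test. Without control NX it was -0.70 with an unadjusted p of 0.116 by the same test. In GENCODE an exon of Pcdhb22 overlaps Pcdhb21 on the same strand, and Pcdhb21 is not analysed here, so how reads over it were assigned is uncertain.

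Pcdhb16 and Pcdhb17 were the most abundant beta members. Pcdhb16 held 41.6 CPM in NX, 25.7 in NY, 43.1 in QT and 54.9 in RM for control, against 46.6 in NX, 23.2 in NY, 35.3 in QT and 32.3 in RM for knockout, with NY the lowest of each genotype. Pcdhb17 held 22.8 CPM in NX, 19.2 in NY, 24.3 in QT and 21.1 in RM for control, against 22.8 in NX, 11.7 in NY, 37.3 in QT and 21.3 in RM for knockout. Its 4 controls lay close together and the knockout libraries enclosed them. Pcdhb7 held 10.7 CPM in NX, 11.4 in NY, 10.9 in QT and 19.4 in RM for control, against 14.3 in NX, 8.78 in NY, 25.1 in QT and 17.8 in RM for knockout, and control RM stood apart from the other controls. Pcdhb1 had 1 count, in control QT.

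All 22 gamma members were tested, 13 fitted higher and 9 lower, with log2 fold changes from -0.30 to 0.45. Pcdhgc3, a C-type gamma member, had the third highest mean of all 91 at 65.6 TPM. It held 167 CPM in NX, 202 in NY, 186 in QT and 115 in RM for control, against 204 in NX, 189 in NY, 106 in QT and 100 in RM for knockout, or 24.5 ± 8.33% of gamma TPM in control and 20.9 ± 9.35% in knockout (SD, n = 4). RM was lowest in both genotypes, and knockout QT was low as well. Pcdhga12 held 32.8 CPM in NX, 36.0 in NY, 23.3 in QT and 116 in RM for control, against 42.1 in NX, 47.0 in NY, 90.0 in QT and 100 in RM for knockout. Control RM stood far above the other controls, and the log2 fold change of 0.44 ± 0.47 (SE) became 1.18 without it, with an unadjusted p of 0.00447 and an adjusted p of 0.753 by edgeR's quasi-likelihood test.

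Pcdhgb1 held 30.0 CPM in NX, 21.8 in NY, 45.9 in QT and 72.0 in RM for control, against 33.9 in NX, 23.3 in NY, 52.8 in QT and 38.8 in RM for knockout, with the knockout libraries inside the control range. The smallest p among gamma members were those of Pcdhga4 and Pcdhgb4. Pcdhga4 held 20.1 CPM in NX, 9.99 in NY, 16.45 in QT and 16.54 in RM for control, against 25.7 in NX, 12.1 in NY, 22.1 in QT and 25.1 in RM for knockout, with a log2 fold change of 0.43 ± 0.32 (SE). Pcdhgb4 held 17.8 CPM in NX, 14.8 in NY, 16.2 in QT and 26.4 in RM for control, against 16.6 in NX, 20.0 in NY, 23.4 in QT and 38.8 in RM for knockout, where RM was highest in each genotype. The remaining C-type members Pcdhgc4 and Pcdhgc5 had log2 fold changes of -0.30 and -0.30.

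Libraries that share a prefix were often high together. In CPM, the highest library of each genotype carried the same prefix for 34 of 80 members (42.5%, against 38.9% of all tested genes), and that prefix was RM for 22 (27.5%, against 13.3%). Among gamma members RM was highest in CPM in both genotypes for 9 of 22, Pcdhga12 and Pcdhgb4 among them, but for 1 of 20 beta members. The RM pattern depends on the unit. The gamma sum of knockout RM was the highest knockout sum in CPM (829) but the lowest of all libraries in TPM (215, against 260 to 352). In TPM, Pcdhga12 and Pcdhgb4 were higher in knockout QT (41.6 and 10.5) than in knockout RM (27.8 and 10.3). The RM libraries held 5785549 (control) and 7447874 (knockout) counts, and knockout QT held 6384499. TMM factors, which enter CPM but not TPM, were lowest in RM, at 0.953 for control and 0.808 for knockout. The other libraries had 0.989 to 1.11, and a lower factor raises every CPM value of its library. Radial glia markers summed to 619 CPM in control RM and 859 in knockout RM, beside 699 in control NY and 579 in knockout NY. The part of depth, of the TMM factors or of these markers was not tested. Standard errors of the log2 fold change ran from 0.21 for Cdh2 to 1.33 for Cdh5, with a median of 0.40 over members and 0.37 over all tested genes.

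**Figure D5:**
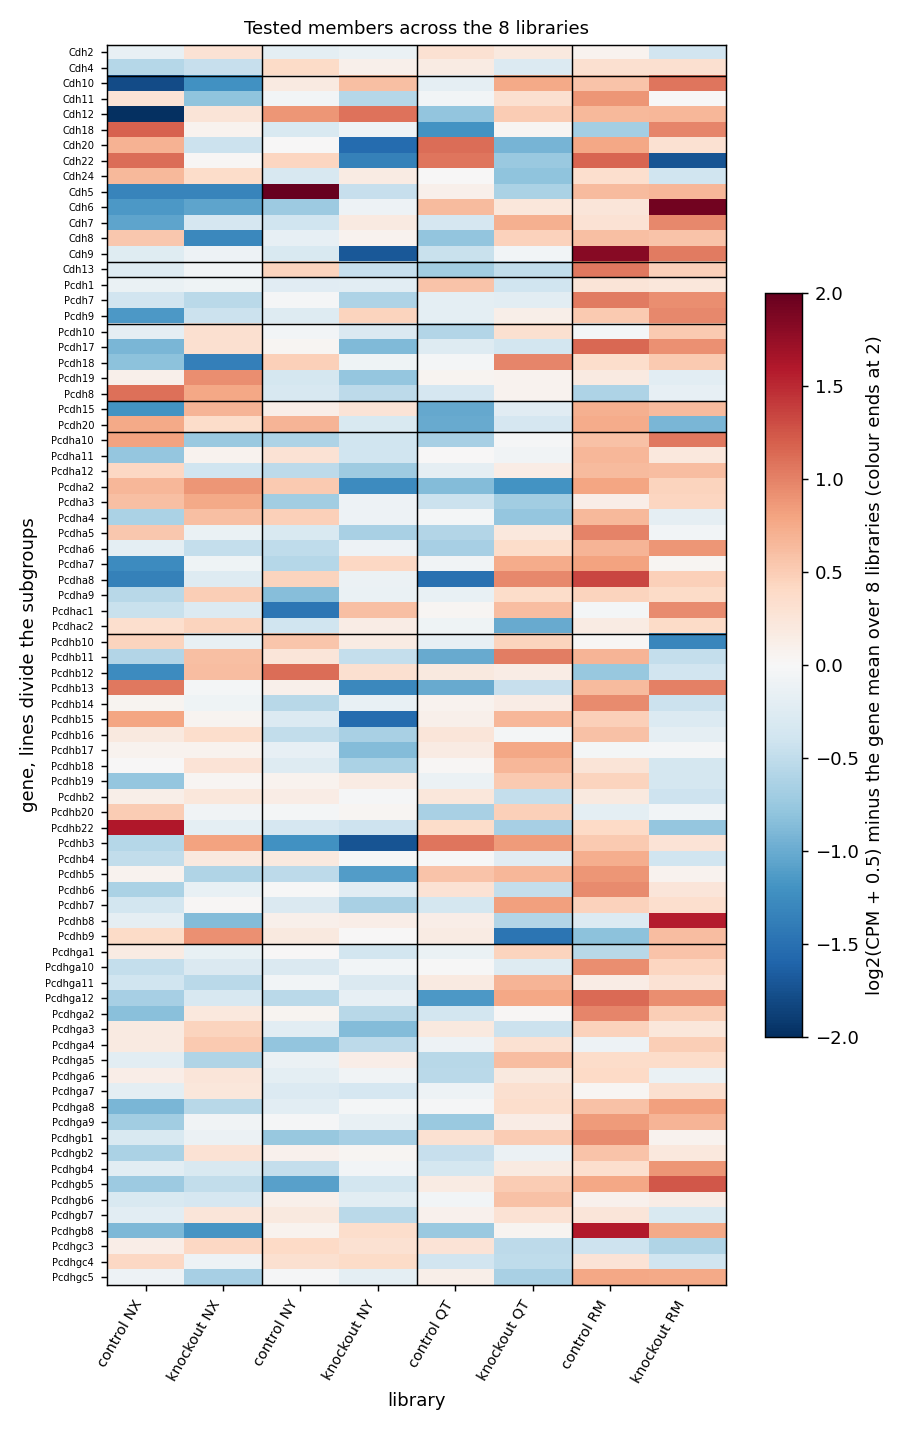
Tested members (lines) in the 8 libraries (columns, by title prefix), as log2(CPM + 0.5) minus the mean of the gene; red is above and blue below its own mean, and black lines divide subgroups and prefixes. The RM columns are red for many gamma members, and Cdh22 is red in the control columns and blue or pale in the knockout columns.

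Genes that work with cadherins gave no call either: 0 of 34 tested partners were called and 0 had an unadjusted p under 0.05 by edgeR's quasi-likelihood test, with a median log2 fold change of 0.03. Among catenins, which join classical cadherins to actin, Ctnnb1 (beta-catenin) had 555 ± 150 CPM for control and 586 ± 84.9 for knockout, and the smallest p was that of Jup (plakoglobin) with a log2 fold change of -0.57 ± 0.29 (SE). In the other roles the smallest p belonged to Pvrl3 (nectin-3, 1.00 ± 0.48), Cyfip1 of the WAVE complex (-0.34 ± 0.20), Psen2 of the protease that cleaves cadherins (-0.83 ± 0.67), the kinase Ptk2 (0.00 ± 0.21) and the DNA methyltransferase Dnmt3b (-1.50 ± 0.75), given as log2 fold changes with standard errors. Pvrl3 held 92.3 CPM in knockout NX and 14.7 to 30.2 in the other 7 libraries, and without knockout NX its log2 fold change was 0.18 ± 0.33 (SE). Dnmt3b was highest in control NX, and without that library its log2 fold change was -0.94 ± 0.78 (SE). Ctcf, which binds the alternative promoters of the clusters, had 125 ± 17.9 CPM for control and 140 ± 14.0 for knockout (SD, n = 4).

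Other genes of the cadherin superfamily were fitted lower for 10 of 11 tested, beside 7158 of all 14157 tested genes, with a median log2 fold change of -0.32 against -0.01 over all tested genes. By edgeR's quasi-likelihood test 0 were called, and 3 of 11 had an unadjusted p under 0.05, all fitted lower, beside 1.91% of all tested genes. Celsr2, a seven-pass cadherin of planar polarity, had 213 CPM in NX, 293 in NY, 365 in QT and 304 in RM for control, against 173 in NX, 184 in NY, 231 in QT and 214 in RM for knockout, a log2 fold change of -0.55 ± 0.21 (SE). Clstn1, a calsyntenin of axons and synapses, had 108 CPM in NX, 106 in NY, 135 in QT and 123 in RM for control, against 92.4 in NX, 92.6 in NY, 57.8 in QT and 81.9 in RM for knockout. Its genotypes did not overlap in CPM, as for 2.59% of all tested genes. In TPM they did, with 49.2 in knockout NX above 42.7 in control NY and 43.0 in control RM. Fat3, a giant cadherin that shapes dendrites, had 418 CPM in NX, 185 in NY, 159 in QT and 358 in RM for control, against 135 in NX, 97.6 in NY, 202 in QT and 217 in RM for knockout, with control NX and RM the highest. Their log2 fold changes were -0.54 ± 0.21 for Clstn1 and -0.78 ± 0.34 for Fat3 (SE), with a Benjamini-Hochberg adjusted p of 1.00 for all 3 on edgeR's quasi-likelihood test. Leaving out 1 library at a time took the unadjusted p of that test up to 0.0696 for Celsr2, 0.0647 for Clstn1 and 0.146 for Fat3. The 1 of 11 fitted higher was Pcdh11x, at 0.02 ± 0.53 (SE). This list of genes was chosen with earlier results of these data known.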

How the data were processed

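Reads were processed by the authors with Trimmomatic 0.33, Bowtie2 and RSEM 1.2.22 on mm10, per the submitters' processing notes; the annotation release is not given in the sources used here. The deposited expected counts, per the file headers, are RSEM estimates per gene, and the deposited TPM values scale them to gene length and library total. Amplified cDNA libraries that do not mark strand were made, per the labels' protocols, so antisense reads cannot be told apart.

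Rounded expected counts were analysed in edgeR 4.0.16 (R 4.3.3): filterByExpr, TMM factors, and glmQLFit and glmQLFTest with genotype as the single term, with Benjamini-Hochberg adjustment over 14157 genes and a threshold of 0.05. All 8 libraries were used. Standard errors come from the quasi-likelihood F. Alternatives changed the factors, filter, prefix block, libraries, test (DESeq2 1.42.0, limma 3.58.1) and unit.

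Members named with values in every library are those at an unadjusted p under 0.05 or with genotypes that do not overlap and, in each subgroup, the 3 with the highest mean TPM and the 2 with the smallest p. Partner genes are named by smallest p in each role or an unadjusted p under 0.05. Ctnnb1, Ctcf, Cdh5, Cdh7 and Pcdh11x were named after their values were seen. The members and lists were chosen with earlier results of these data known. GENCODE vM21 supplied positions for 89 of 91 members. The procedure was tested on simulated data.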

Additional observations from a re-analysis of the deposited data

Results flagged for a closer look

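The 35 members chosen by the naming rule were screened in each genotype. In 9 cases the highest or lowest of 4 libraries of a genotype stood apart from the other 3 by Dixon's ratio at the 95% level. Chance flags about 1 in 20 groups of normally distributed values, a rate that does not hold for very low counts. Cdh22 was low in control NY (5.477 CPM against 8.80 to 9.45 in the other controls), and that library is still above every knockout library. Pcdh20 was low in control QT (1.53 CPM against 6.07 to 6.39). Pcdhga12 was high in control RM (115.6 CPM against 23.3 to 36.0), as was Pcdhb7 (19.45 CPM against 10.7 to 11.4). Cdh23 was high in control RM (4.907 CPM against 0.124 to 0.459) and in knockout RM (3.161 CPM against 0 to 0.304), from 59 counts over the 8 libraries. The others rest on few counts: Pcdh12 in knockout RM (0.9983 CPM, 18 counts over the 8 libraries), Cdh1 in knockout RM (0.1664 CPM, 1 count) and Cdh15 in control NX (0.062 CPM, 1 count). A group with counts in 1 library only, as for Cdh1 and Cdh15, is always flagged by this ratio.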

How the results depend on the processing

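No member was called under any of the 23 alternatives. The count at an unadjusted p under 0.05, 2 of 80 in the report, was 7 when the prefix entered as a replicate block (4 higher, 3 lower, against 7.16% of all tested genes), 4 with DESeq2 (4.51% of all), 5 of 79 without both RM libraries (3.3% of all) and 1 of 81 without control NX and knockout QT (2.46% of all). Leaving out 1 library gave 1 (control NX, 3.85% of all) to 8 (control RM, 4.94% of all), with 2.24% to 6.23% of all genes over the 8 such fits. Members whose genotypes do not overlap numbered 1 to 5 when 1 library was left out, and such genes then made up 3.67% to 7.69% of all tested genes. The replicate block was not the main fit because the labels do not say that a prefix marks a pair. Deviations of same-prefix libraries correlated at 0.385 (NX), 0.303 (NY), 0.0658 (QT) and 0.45 (RM) across genes. Those of control and knockout libraries with different prefixes correlated at -0.352 to 0.0753. These values do not settle which prefixes pair the libraries. The members added with the block were Cdh7, Cdh10, Cdh20, Pcdh9 and Pcdhac1. Pcdh9 had the smallest p of these (unadjusted 0.00543, adjusted 0.366, against 0.167 unadjusted without the block, by edgeR's quasi-likelihood test). The 30 named tested members gave 660 values over 22 alternatives, of which 45 changed sign, in 13 members; Cdh22, Cdh20, Pcdhb22, Pcdhac1, Pcdh10 and Pcdh9 were among the 17 that did not. Sign changes of members with an unadjusted p above 0.05 in both fits were not taken as reversals. Alternatives that leave out both libraries of a prefix, or control NX with knockout QT, and the leave-out fits of partner and superfamily genes were chosen after seeing the data. Depth limits the low members: 3 counts were 0.545 CPM in control RM. The cause of these changes was not tested.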
